A study of Mus musculus with 18 samples.

Results

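The genes described here encode 6 enzymes that add nucleotides to the 3′ ends of RNA: the poly(A) polymerases Papola, Papolg and Tent2 and the terminal uridylyltransferases Tut4, Tut7 and Tut1. They were taken by name from 55471 Ensembl gene IDs measured in MII oocytes, eggs that wait for fertilisation at the second meiotic metaphase. All 6 were found, and all 6 passed the count filter that left 13680 genes for testing. Papolg was chosen by its expression values in these files, as it was lower in the KO-labelled libraries. Its difference between the genotypes is therefore given as a description without a test. The other 5 were named for their function, with earlier results of these data known. Messenger RNA was sequenced from 3 wild-type libraries (WT) and 3 libraries with the genotype Isca2 -/- (KO). The ISCA2 protein helps build iron-sulfur clusters in mitochondria. The labels give no strain, age, deleted part of Isca2, Cre line or number of oocytes per library for these mice, and the one collection protocol, written for embryos, describes hormone-treated Isca2+/- females mated to Isca2+/- males. Replicates are not said to come from separate animals, and the p-values therefore speak only of the spread among the libraries, which may be technical.

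Poly(A) tails protect messenger RNA and help its translation. In the growing oocyte much messenger RNA is stored with a short tail, and during meiotic maturation selected messages are lengthened again in the cytoplasm while others are deadenylated, given uridines and degraded. Transcription is largely silent in MII oocytes, which rely on messenger RNA made earlier.

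The libraries held between 17792157 and 30240350 expected counts. The expected counts of Isca2 itself were 14, 11 and 152 in the WT libraries and 53, 56 and 120 in those labelled KO. Its groups overlapped in CPM and in TPM (log2 fold change 0.59, SE 0.89), with the highest count in WT replicate 3. No loss of Isca2 was therefore seen in its counts, and every direction is between libraries as labelled. The 14 oocyte markers summed to between 19750 and 21740 CPM (counts scaled to the size of each library) in the 6 libraries, a sum to which H1foo, Gdf9 and Oosp1 gave much. None of the 14 was called. At an unadjusted p under 0.05 (edgeR) there were 5 lower and 0 higher in KO, where 3.3% and 2.89% of all genes lay. The groups did not overlap for Ooep, Npm2 and Zar1, with KO lower, and for Gdf9, with KO higher. The same held for 5.96% of all genes on the lower and 6.48% on the higher side. The median log2 fold change of the 14 was -0.29, and -0.12 without WT replicate 3. The part of these markers in the results was not tested. WT replicate 3 stood apart: 15 macrophage and immune markers summed to 2455 CPM there and to between 5.93 and 11.1 CPM in the other 5 libraries, where 12 of the 15 stayed below 1 CPM. The 16 granulosa and cumulus markers summed to 95.2, 77.7 and 74.1 CPM in WT and to 123, 249 and 312 CPM in the KO-labelled libraries. Much of the WT sums came from Cyp19a1, with 63.7, 64.7 and 51.2 CPM in WT and 60.3, 58.4 and 52.0 CPM in the KO-labelled libraries. Gja1 gave much of the difference, with 9.86, 0.39 and 0.10 CPM in WT and 37.7, 112 and 124.5 CPM in the KO-labelled libraries. Of the 16 markers, Foxl2, Amh, Amhr2 and Cyp11a1 were below 1 CPM in every library. Fewer cells of a type and less RNA per cell cannot be told apart in such bulk libraries.

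Papola had the highest level of the 6 genes in every library, and the genes spanned from below 1 to over 200 TPM, a level scaled to transcript length that can be compared between genes. The median TPM over the 6 libraries was 251 for Papola, 36.4 for Papolg, 31.3 for Tent2, 25.3 for Tut7, 4.58 for Tut1 and 4.20 for Tut4. Papola, with a range of 209.5 to 271 TPM, did not overlap any other member. Papolg, Tent2 and Tut7 overlapped in range (25.1 to 62.4, 27.0 to 32.8 and 19.5 to 31.9 TPM). Within each library Papolg was above Tut7. Tent2 was below Papolg except in KO replicate 3, and above Tut7 except in WT replicate 2. Tut1 (3.41 to 7.75 TPM) and Tut4 (0.54 to 15.3 TPM) overlapped too, and both lay below the other 4 genes. Papola made up 64.7%, 62.5% and 68.8% of the summed TPM of the 6 genes in WT replicates 1, 2 and 3, and 72.5%, 69.9% and 76.1% in the KO-labelled libraries. That sum itself was between 333 and 374 TPM in the 6 libraries.

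**Figure D1:**
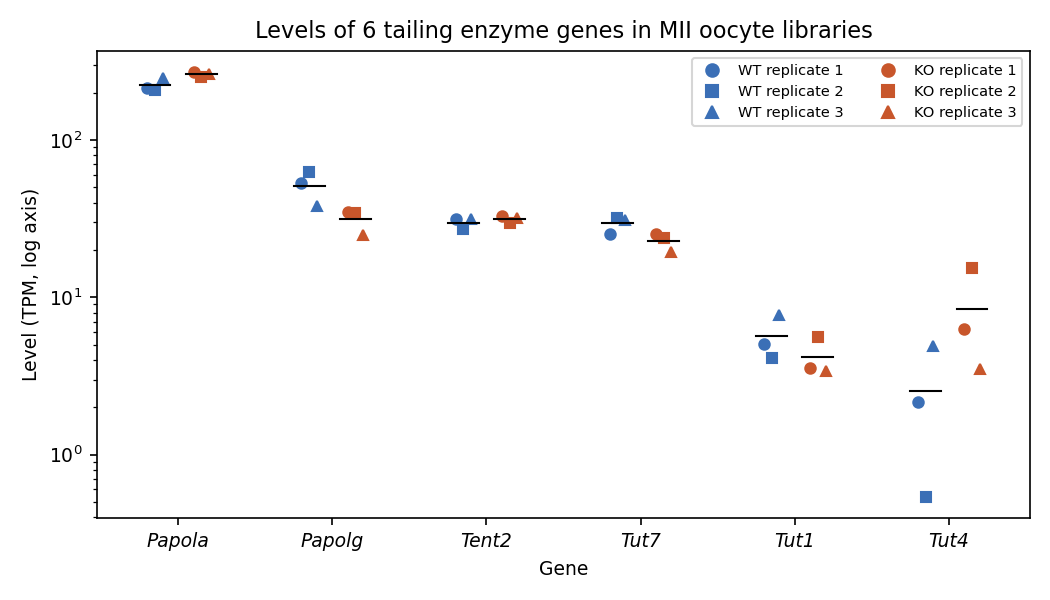
Deposited TPM (log axis) of each gene in each of the 6 MII oocyte libraries, with WT in blue, KO in orange, one symbol per replicate and a bar at each group's mean (n = 3). Papola lies between 209.5 and 271 TPM, above every other gene, and Tut4 has the widest spread, from 0.54 to 15.3 TPM.

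None of the 5 members other than Papolg passed the test between genotypes (edgeR's quasi-likelihood test, Benjamini-Hochberg adjusted p under 0.05 over all genes). DESeq2 and limma-voom also called 0 of the 5, as did edgeR without WT replicate 3. Of all genes tested, edgeR called 0.0146%, none higher and 2 lower in the KO-labelled libraries, DESeq2 called 0.738% and limma-voom 0.0146%. Without WT replicate 3 edgeR called 0.651%, of which 0.574% on the higher and 0.0779% on the lower side. At an unadjusted p under 0.05, Tut4 was on the higher side and Tut7 on the lower, where 2.89% and 3.3% of all genes lay. The CPM of the groups did not overlap for Papola, Tent2 and Tut4, with KO higher, and for Tut7, with KO lower. The same held for 6.48% of all genes on the higher and 5.96% on the lower side.

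Papola encodes the canonical nuclear poly(A) polymerase, which tails most messenger RNAs after cleavage of the precursor. The gene (ENSMUSG00000021111) lies on chromosome 12, 105784677 to 105838949 (GRCm38.p6). Its level was 218, 222 and 224 CPM in WT and 254, 227 and 256 CPM in the KO-labelled libraries. Every KO-labelled library lay above every WT library, and KO replicate 2 was close to the WT values. The means were 221 ± 2.62 and 245 ± 16.4 CPM (SD, n = 3 each), a log2 fold change of KO over WT of 0.15 (SE 0.10, edgeR adjusted p = 0.794). The deposited TPM, which also divides by the estimated transcript length, was 215, 209.5 and 249 in WT and 271, 253 and 265 in the KO-labelled libraries.

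Papolg encodes a second nuclear poly(A) polymerase, a close relative of Papola. It (ENSMUSG00000020273) lies on chromosome 11, 23860145 to 23895293, and at one end overlaps the long non-coding RNA gene Gm12061 (23894252 to 23919014). Reads in the shared stretch cannot be separated without a stated strand setting. Papolg had 102, 116 and 67.8 CPM in WT replicates 1, 2 and 3 and 68.0, 68.1 and 56.5 CPM in the KO-labelled libraries. WT replicates 1 and 2 were the high libraries, and WT replicate 3, the library with immune RNA, was at the level of KO replicates 1 and 2. The part of that RNA in this value was not tested. The log2 fold change was -0.57 (SE 0.21) with all 6 libraries and -0.76 (SE 0.13) without WT replicate 3, given as a description.

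In TPM the picture of WT replicate 3 was less extreme. Papolg had 53.6, 62.4 and 37.9 TPM in WT and 34.9, 34.5 and 25.1 TPM in the KO-labelled libraries. On this scale each WT library lay above each KO-labelled library, whereas in CPM the groups overlapped. As Papolg was chosen for being lower in KO, this is a description only. The share of all genes so separated in TPM was not counted. For every 100 TPM of Papola there were 24.9, 29.8 and 15.2 TPM of Papolg in WT and 12.9, 13.7 and 9.47 TPM in the KO-labelled libraries. This ratio reuses the values Papolg was chosen by, and it also takes in the transcript length estimates. In expected counts, without those lengths, there were 46.6, 52.2 and 30.3 counts of Papolg per 100 of Papola in WT and 26.8, 30.1 and 22.1 in the KO-labelled libraries. On that scale WT replicate 3 and KO replicate 2 were nearly equal.

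**Figure D2:**
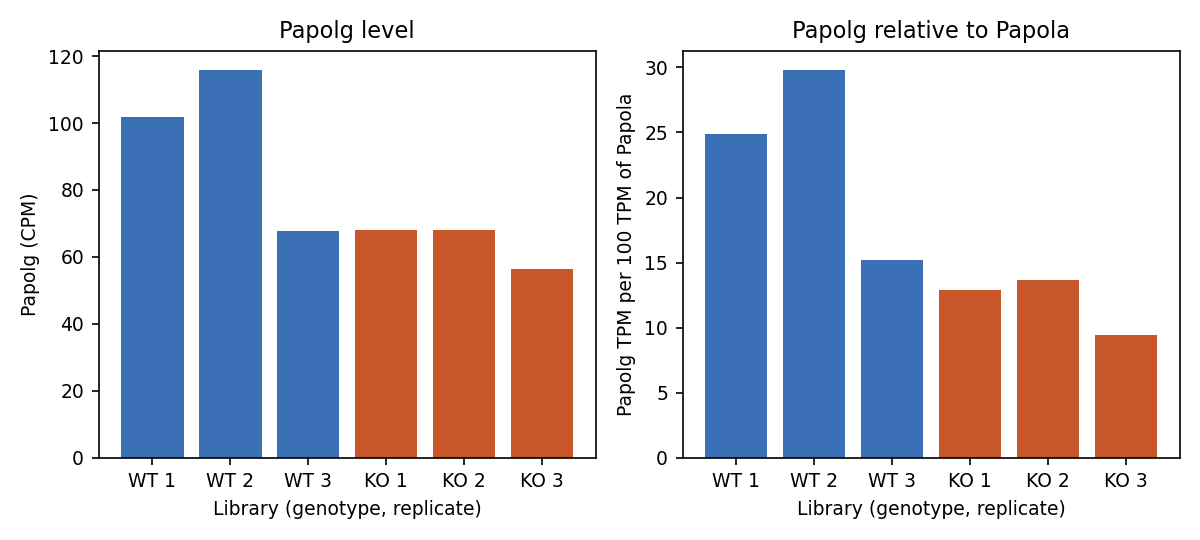
Papolg in CPM (left) and as TPM of Papolg per 100 TPM of Papola (right), one bar per library, WT in blue and KO in orange. WT replicate 3 has 67.8 CPM, between the KO-labelled libraries, and 15.2 TPM per 100 TPM of Papola, above their highest value of 13.7.

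The promoters of this pair of nuclear polymerase genes are shown because they hold the same letters shortly after the start of transcription. RefSeq windows (GRCm38.p6) were matched for all 6 members, 8 windows in all as Tut4 and Tut7 have several starts. The letters searched were GCCATNTT, found in the motif of the factor YY1, on both strands. That search was chosen after the sequences were seen. They occur in the 300-base windows of Papola, Papolg and Tut1 and in 6.05% of all 32851 windows of that length. The last 100 bases of each are given here, with 50 bases before and 50 from the start on, 5′ to 3′ on the gene's strand, with the match in capitals. The match begins 33 bases after the start in Papola and 26 bases after it in Papolg, and in Tut1 it lies on the other strand before the start. The start meant here is that of the window. For Papola and Papolg it lies within the gene span given above, not at its outer end.
Papola, chr12:105784647-105784746, plus strand: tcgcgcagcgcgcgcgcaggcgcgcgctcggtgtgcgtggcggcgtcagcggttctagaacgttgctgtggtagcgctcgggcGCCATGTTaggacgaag
Papolg, chr11:23895221-23895320, minus strand: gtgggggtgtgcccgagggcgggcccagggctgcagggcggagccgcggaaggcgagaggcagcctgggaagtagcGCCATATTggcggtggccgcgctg
Tut1, chr19:8953782-8953881, plus strand: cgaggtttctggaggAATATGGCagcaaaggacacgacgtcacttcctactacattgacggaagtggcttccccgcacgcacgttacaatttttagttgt
In Papolg the match shares letters with a CCAAT read on the other strand. None of the 8 windows held TATAAA, the TATA box letters, which occur in 13.6% of all windows. CCAAT was present for Papolg, Tut7, Tut1 and one start of Tut4 (37.4% of all windows), and GGGCGG, the GC box letters, for Papolg, Tut7, Tut1 and the other start of Tut4 (35.7%).

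Tent2, also named GLD-2, encodes a cytoplasmic poly(A) polymerase that lengthens tails after export from the nucleus and needs partner proteins to reach its RNA. The gene (ENSMUSG00000042167, chromosome 13, 93145855 to 93192435) was the steadiest member in TPM, with 31.3, 27.0 and 31.3 in WT and 32.8, 29.5 and 31.8 in the KO-labelled libraries. In CPM it had 64.9, 60.4 and 62.1 in WT and 71.2, 65.0 and 75.3 in the KO-labelled libraries. The groups did not overlap in CPM, while they did in TPM, and the log2 fold change was 0.17 (SE 0.12, edgeR adjusted p = 0.793). Across the 6 libraries the log2 CPM profiles of Tent2 and Papola, each centred on its own mean, differed by a root mean square of 0.045. Of 7688 other genes compared, 9 were closer to Papola than Tent2 was.

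Tut4 and Tut7 encode a pair of uridylyltransferases that add uridines to messenger RNAs with short tails and to the precursors of let-7 microRNAs, and both are known to act in the mouse oocyte. Neither passed the test between genotypes. Tut7 (ENSMUSG00000035248, chromosome 13, 59771876 to 59823169) overlaps the long non-coding RNA gene Etohd2 and was the more abundant of the pair in each library. It had 79.7, 97.5 and 84.5 CPM in WT and 73.7, 68.2 and 66.8 CPM in the KO-labelled libraries. All KO-labelled libraries were below all WT libraries, with KO replicate 1 nearest to WT replicate 1. The means were 87.3 ± 9.22 and 69.6 ± 3.66 CPM (SD, n = 3 each). This 1.25-fold lower level had a log2 fold change of -0.33 (SE 0.12, edgeR adjusted p = 0.766) and did not pass the test. In TPM, Tut7 had 25.3, 31.9 and 31.2 in WT and 25.3, 23.9 and 19.5 in the KO-labelled libraries, where WT replicate 1 and KO replicate 1 were nearly equal. Among the 5 other members Tut7 had the profile nearest to that of Papolg, although 388 of 7688 genes were nearer.

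Tut4 (ENSMUSG00000034610, chromosome 4, 108459410 to 108559415) was measured from few reads. It had 58, 5 and 124 expected counts in WT and 207, 290 and 292 in the KO-labelled libraries. That corresponds to 2.54, 0.24 and 4.28 CPM in WT and 9.07, 16.2 and 10.3 CPM in the KO-labelled libraries. Each KO-labelled library had more than any WT library, and WT replicate 2 had almost none. The fitted difference was 5.00-fold higher (log2 fold change 2.32, SE 0.83, edgeR adjusted p = 0.766) and did not pass the test. Without WT replicate 3 it was 3.07 on the log2 scale (SE 0.71, edgeR adjusted p = 0.108), and the adjusted p over all alternatives ranged from 0.0842 to 0.999. The deposited TPM of Tut4 gave another order: 2.15, 0.54 and 4.90 in WT and 6.32, 15.3 and 3.50 in the KO-labelled libraries. On this scale KO replicate 3 lay between WT replicates 1 and 3 and the groups overlapped. The summed CPM of the granulosa and cumulus markers, given above, was also higher in each KO-labelled library than in each WT library, and their part in the Tut4 values was not tested. Of the 10 such markers tested 0 were called with 6 libraries and 1, Inhbb, was called higher without WT replicate 3. For 5 of the 10, among them Inhbb, an inhibin subunit gene, and the follistatin gene Fst, every KO-labelled library lay above every WT library, as for 6.48% of all genes. Cyp19a1 and Nr5a2, also in that list, had log2 fold changes of -0.07 and 0.05. Within Tut4 lie several small nuclear RNA genes and the pseudogene Gm12739.

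Tut1 encodes the enzyme that adds uridines to U6 spliceosomal RNA and that can also act as a nuclear poly(A) polymerase. It (ENSMUSG00000071645, chromosome 19, 8953832 to 8966210) had 8.02, 8.17 and 12.9 CPM in WT and 6.18, 10.1 and 6.45 CPM in the KO-labelled libraries. The groups overlapped, and WT replicate 3 held the highest value. The log2 fold change was -0.36 (SE 0.33, edgeR adjusted p = 0.838), and -0.10 (SE 0.31, adjusted p = 0.950) without WT replicate 3.

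The oocyte files also hold, for each gene, the mean length of its annotated transcripts weighted by their estimated shares, a readout that played no part in the choice of members. For Papola, with 20 annotated transcripts, this length was 1570, 1540 and 1496 bases in WT and 1422, 1374 and 1375 bases in the KO-labelled libraries. No KO-labelled library reached the shortest WT estimate, that of WT replicate 3, so that the estimated mix was shorter by 145.3 bases (1536 ± 37.3 against 1390 ± 27.4 bases, SD, n = 3 each). The two-sided exact permutation test gave p = 0.1, the smallest that 3 against 3 allows, and 0.4 after Benjamini-Hochberg adjustment over the 6 members. Among 11480 tested genes with several transcripts, 5.31% were shorter and 4.02% longer in KO without overlap between the groups. Leaving out any 1 library gave differences from -165 to -128 bases.

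For the other 5 members the lengths of the groups overlapped. Papolg had 2721, 2515 and 2719 bases in WT and 2701, 2731 and 2862 bases in the KO-labelled libraries (exact permutation p = 0.4). Tent2 stayed between 2943 and 3022 bases in all 6 libraries (exact permutation p = 0.2). Tut7 was between 3842 and 4340 bases (exact permutation p = 0.5) and Tut1 between 2314 and 2679 bases (exact permutation p = 0.7). Tut4 had the widest range of estimated length, with 1783, 794 and 1462 bases in WT and 2050, 1583 and 3657 bases in the KO-labelled libraries (exact permutation p = 0.2). KO replicate 3, with the longest estimate, was the KO-labelled library whose Tut4 TPM was lowest, and WT replicate 2, with the shortest, rested on 5 counts.

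**Figure D3:**
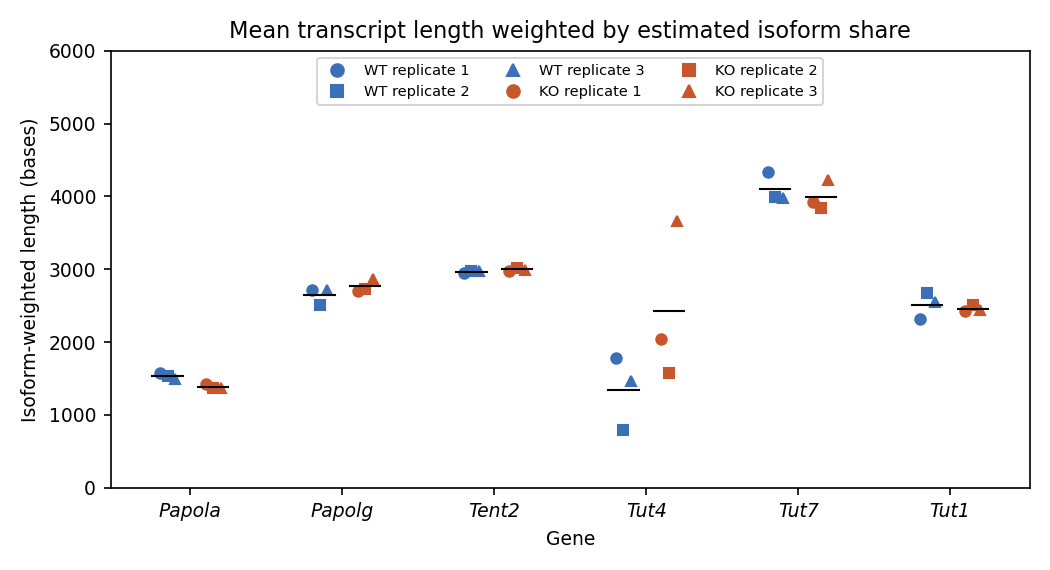
Transcript length in bases, averaged over a gene's transcripts with their estimated shares as weights, for each gene and library (WT blue, KO orange, one symbol per replicate, bar at the group mean, n = 3). Papola is the one gene whose groups do not overlap, at 1496 to 1570 bases in WT and 1374 to 1422 in KO, and Tut4 runs from 794 to 3657 bases.

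Other genes of RNA tailing showed no called difference between the genotypes. Over 5 lists, 65 of 68 genes could be tested and edgeR called 0 of them, beside 0.0146% of all genes. DESeq2 and limma-voom called 0 as well, and at an unadjusted p under 0.05 there were 2 higher and 4 lower, where 2.89% and 3.3% of all genes lay. The CPM of the groups did not overlap for 5 of the 65 with KO higher and for 3 with KO lower, beside 6.48% and 5.96% of all genes. The median log2 fold change of the 65 was -0.10, beside -0.04 for all genes tested.

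Of 18 genes of the nuclear cleavage and polyadenylation complex, which cuts the precursor and recruits Papola, 4 had a positive log2 fold change and the median was -0.19. Leaving out WT replicate 3 took that median to 0.03. Sympk, which encodes the scaffold protein symplekin, averaged 2.31 ± 0.16 CPM (SD, n = 3) in WT and 3.78 ± 1.11 CPM (n = 3) in the KO-labelled libraries (log2 fold change 0.71, SE 0.38). Cstf3, a subunit of the cleavage stimulation factor, had 29.2, 30.6 and 23.8 CPM in WT and 32.8, 35.2 and 34.2 CPM in the KO-labelled libraries. Its groups did not overlap (log2 fold change 0.29, SE 0.16, edgeR adjusted p = 0.767, and 0.19 on the log2 scale without WT replicate 3).

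Among 13 tested factors of cytoplasmic polyadenylation, which select messages for lengthening during maturation, the median was -0.08. Cpeb3, which encodes a protein that binds the cytoplasmic polyadenylation element, had 24.8, 25.9 and 20.1 CPM in WT and 16.0, 17.7 and 17.2 CPM in the KO-labelled libraries (log2 fold change -0.47, SE 0.18, edgeR adjusted p = 0.766). Zar1, a maternal protein that binds stored messages, had 478 ± 36.5 and 395 ± 24.2 CPM (SD, n = 3 each; log2 fold change -0.27, SE 0.11). For both genes each KO-labelled library lay below each WT library, without passing the test.

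The 11 tested genes of poly(A) binding proteins and their partners had a median of -0.02. Pabpc4l, a little-studied relative of the cytoplasmic poly(A) binding protein, had 0.92, 0.15 and 0.59 CPM in WT and 2.80, 3.02 and 1.73 CPM in the KO-labelled libraries (log2 fold change 2.17, SE 0.70, edgeR adjusted p = 0.766). The oocyte form Pabpc1l, also named ePAB, had 9.11, 3.75 and 14.9 CPM in WT and 5.39, 2.91 and 2.40 CPM in the KO-labelled libraries, with the groups overlapping. Its log2 fold change was -1.38 (SE 0.56) and, without WT replicate 3, -0.85.

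The list of 16 genes for decay of uridylated RNA and partners of U6 RNA, which also holds Lin28a and Lin28b, had a median of -0.09. Lin28b, which encodes a protein that binds let-7 precursors, had 19.1, 28.6 and 20.5 CPM in WT and 29.5, 31.9 and 34.3 CPM in the KO-labelled libraries. Its groups did not overlap (log2 fold change 0.49, SE 0.20, edgeR adjusted p = 0.766). Lsm6, a subunit of the ring that binds the ends of oligouridylated RNA and U6, had 34.7, 19.4 and 55.7 CPM in WT and 14.1, 24.0 and 18.4 CPM in the KO-labelled libraries, with the groups overlapping (log2 fold change -0.96, SE 0.39, and -0.53 without WT replicate 3). The 7 tested genes of other tail-adding enzymes had a median of 0.04. Mtpap, the mitochondrial poly(A) polymerase, had 250.2, 262 and 183 CPM in WT and 248, 260.5 and 263 CPM in the KO-labelled libraries, with WT replicate 3 the low library. Its log2 fold change was 0.15 (SE 0.15), and 0.006 without WT replicate 3. Tent5b, another member of this enzyme family, had 17.4 ± 4.63 and 12.8 ± 3.14 CPM (SD, n = 3 each; log2 fold change -0.45, and -0.21 without WT replicate 3). Papolb, an intronless testis relative of Papola, had 1 count in WT replicate 1 and none in the other 5 libraries.

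**Figure D4:**
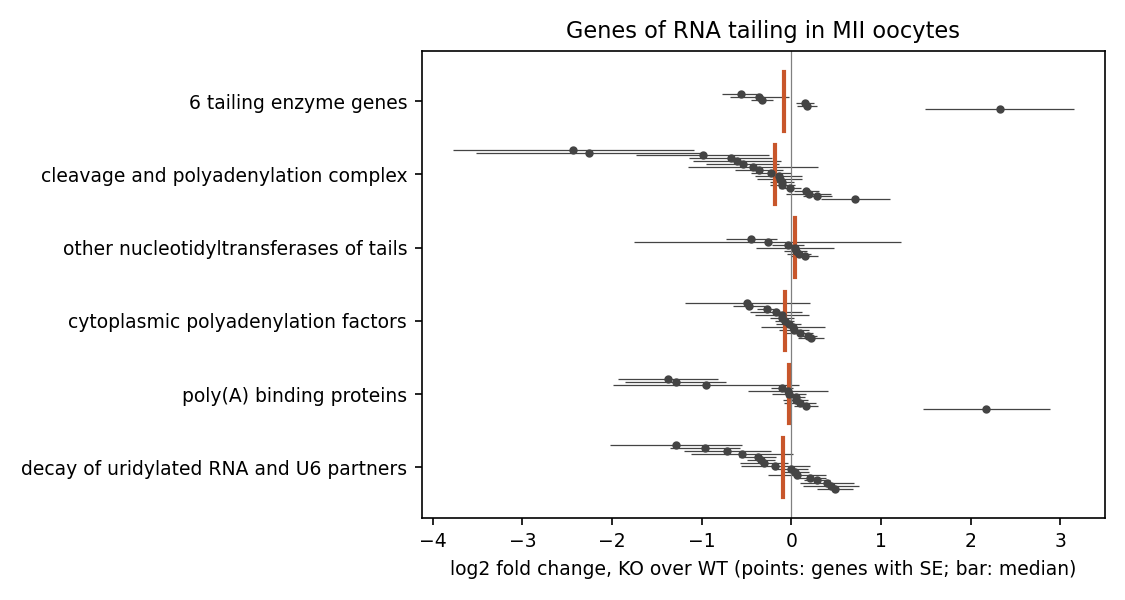
Log2 fold change of KO over WT for each tested gene (points, with SE) in the 6 tailing enzyme genes and 5 lists of related genes, with a bar at each median. The medians lie between -0.19 and 0.04, and Tut4 and Pabpc4l are the points above 2. Clp1 (-2.43) and Cpsf7 (-2.26) are the lowest points, with values of 0.12 and 0.52 without WT replicate 3.

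The genes whose log2 CPM profile over the 6 libraries was nearest to that of Papolg, among 7688 compared, were Tdrd5, Jag2, Stk39, Parpbp and Xlr4a, at root mean square distances of 0.079 to 0.108. Tdrd5, a Tudor domain gene of the germ line, had 86.8, 93.4 and 59.3 CPM in WT and 56.9, 65.4 and 49.9 CPM in the KO-labelled libraries. These genes, and those near Tut4 below, were picked by likeness over the same 6 libraries. A shared pattern was therefore fixed by the choice. The profiles nearest to Tut4 were farther from it: Chchd10, a mitochondrial intermembrane space protein gene, at 0.316, the cathepsin gene Ctsl at 0.374 and the glutathione transferase gene Mgst1 at 0.431. Chchd10 had 7.62, 1.31 and 12.5 CPM in WT and 37.1, 66.6 and 56.0 CPM in the KO-labelled libraries.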

How the data were processed

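Poly(A) polymerase and uridylyltransferase genes were analysed in 3 WT and 3 KO MII oocyte libraries. Sperm small RNA and blastocyst methylation samples were not used here. The deposited files hold expected counts per gene, TPM, FPKM and weighted transcript lengths per the file headers (RSEM). FPKM values deposited by the authors were not used. TPM values deposited by the authors are scaled to length and library. Trim Galore 0.4.5, STAR 2.6.1c, RSEM 1.3.1, DESeq2 1.42.1 and mm10/GRCm38 are named in the submitters' processing notes, without roles. The annotation release and strand setting are not given in the sources used here. RSEM shares reads among similar genes.

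Expected counts were rounded and tested with edgeR 4.0.16 in R 4.3.3 (filterByExpr, TMM, quasi-likelihood test, genotype only, Benjamini-Hochberg, threshold 0.05). CPM uses TMM-scaled totals. The SE is the log2 fold change divided by the root of F. Fits were tested on simulated data. A symbol was found for 55144 of 55471 IDs, and coordinates are RefSeq's (GRCm38.p6). Members and lists were chosen with earlier results of these data known. Genes named are the 6 members, in each list the 2 genes lowest in p, the 5 nearest profiles to Papolg and the 3 nearest to Tut4 (mean log2 CPM of at least 2, prior count 2). Papolb, Clp1, Cpsf7 and markers were named after their values were seen, within the lists. Alternatives were RLE or library-total scaling, DESeq2 1.42.0, limma-voom 3.58.1 with and without library weights, other filters, a replicate block, log2 of TPM plus 1 or 0.1, and each library left out.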

Additional observations from a re-analysis of the deposited data

How the results depend on the processing

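The log2 fold changes of all 6 genes kept their sign in the 18 alternatives: Papola from 0.08 to 0.23, Papolg from -0.77 to -0.40, Tent2 from 0.07 to 0.23, Tut4 from 1.41 to 3.66, Tut7 from -0.39 to -0.23 and Tut1 from -0.61 to -0.10. The alternatives reuse the same libraries and are not independent of each other. Papolg was chosen for its lower values in KO, so its kept sign is only a description. Of the 5 genes other than Papolg, 0 were called in any alternative, and likewise 0 genes of the 5 related lists. The Papolg value was smallest without WT replicate 2 (-0.40) and was -0.76 without WT replicate 3. The number of genes called over the whole table did depend on the choices, and the cause was not tested. It was 0 higher and 2 lower with edgeR, 81 and 20 with DESeq2, 2 and 6 with library weights, 7 and 5 with log2(TPM + 1), and 8 and 5 with log2(TPM + 0.1). With WT replicate 3 left out, DESeq2 gave 426 and 76 and limma-voom 5 and 6. Leaving out 1 library at a time with edgeR gave 0 to 81 higher and 1 to 11 lower, with 81 and 11 without WT replicate 3 and 1 lower without KO replicate 1.

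With the replicate number as a block, the log2 fold change was -0.54 for Papolg and 2.69 for Tut4 (adjusted p = 0.941, edgeR). Same-numbered WT and KO libraries had correlations of their deviations of 0.063, -0.111 and 0.008. Those with unlike numbers had values from -0.133 to 0.134. With 3 libraries per group these values cannot show whether the numbers pair the libraries. Tut4 rested on between 5 and 292 expected counts per library.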
